A study of Mus musculus with 8 samples.

Results

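The genes described here are 34 genes of blood coagulation and fibrinolysis, chosen by symbol for their known roles as clotting factors, fibrinogen chains, contact factors, anticoagulants, fibrinolytic proteins and enzymes of the vitamin K cycle. All 34 were found among the 27179 genes of the table, and all 34 had reads, as did 18937 genes in all. The RNA came from livers of 4 wild-type and 4 V227A mice, all of them adult C57BL/6NHsd males after a fast of 6 h. V227A mice are homozygous for an alanine in place of valine in PPARɑ, a nuclear receptor activated by fatty acids, and the allele was made by adenine base editing and comes from 1 heterozygous founder backcrossed to the same strain. The level used is the authors' average log2 CPM over the 8 libraries, both genotypes together. Levels of either genotype and the spread between mice were not available from this average, so no gene is compared between the genotypes and no value has an SD.

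Clotting is a cascade of serine proteases that circulate as inactive precursors and end in thrombin, which turns soluble fibrinogen into fibrin. Anticoagulant proteins restrain the cascade, and fibrinolysis dissolves fibrin through plasmin. Hepatocytes secrete most of these plasma proteins, while several of the membrane-bound or locally released components are known mainly from endothelium and other cells. CPM expresses the reads of a gene relative to all reads, scaled so that every library has the same total. A level per kilobase subtracts the log2 of the transcript length in kilobases, so that long and short transcripts can be compared.

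Most coagulation genes were among the most abundant transcripts of these livers. Their median average log2 CPM was 7.86, against 1.89 over all 18937 genes with reads. Per kilobase the median was 6.41 for the coagulation genes and 0.68 for the 17956 genes with reads and a known transcript length. The highest 5 percent of genes with reads held 22 of the 34, or 64.7%, and the highest 1 percent held 9. Together the 34 genes took 2.92% of all reads, against 6.94% for *Alb* (albumin) alone. The 3 fibrinogen genes made up 43.5% of the reads of the 34, and the 8 coagulation genes among the 100 most abundant genes made up 80.9%.

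The levels fell into an upper set of 27 genes and a lower set of 7, a split drawn after the values were seen, at the widest step between neighbours. The upper set ended at an average log2 CPM of 5.44 for *Ggcx*, and the lower set began at 2.57 for *Vwf*. Of all genes with reads, 5810 (30.7%) lay inside this gap of 2.87 on the log2 scale. Per kilobase the upper set spanned log2 CPM 3.76 to 10.95, and the lower set, *F3*, *F8*, *Vwf*, *Tfpi*, *Thbd*, *Plau* and *Plat*, spanned -3.36 to 1.0. The 7 lower genes together took 0.00203% of all reads. By role, the median log2 level per kilobase was highest for the fibrinogen chains (10.82) and the fibrinolysis genes (8.11). It was 6.99 for the vitamin K-dependent procoagulants, 6.96 for the contact system, 5.92 for the anticoagulants, 5.89 for the vitamin K cycle and 0.21 for the cofactors with tissue factor. With the median transcript length instead, the cofactor median was 1.67. The contact system (7.59) was then above the vitamin K-dependent procoagulants (7.38), and the vitamin K cycle (6.75) above the anticoagulants (6.50).

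**Figure D1:**
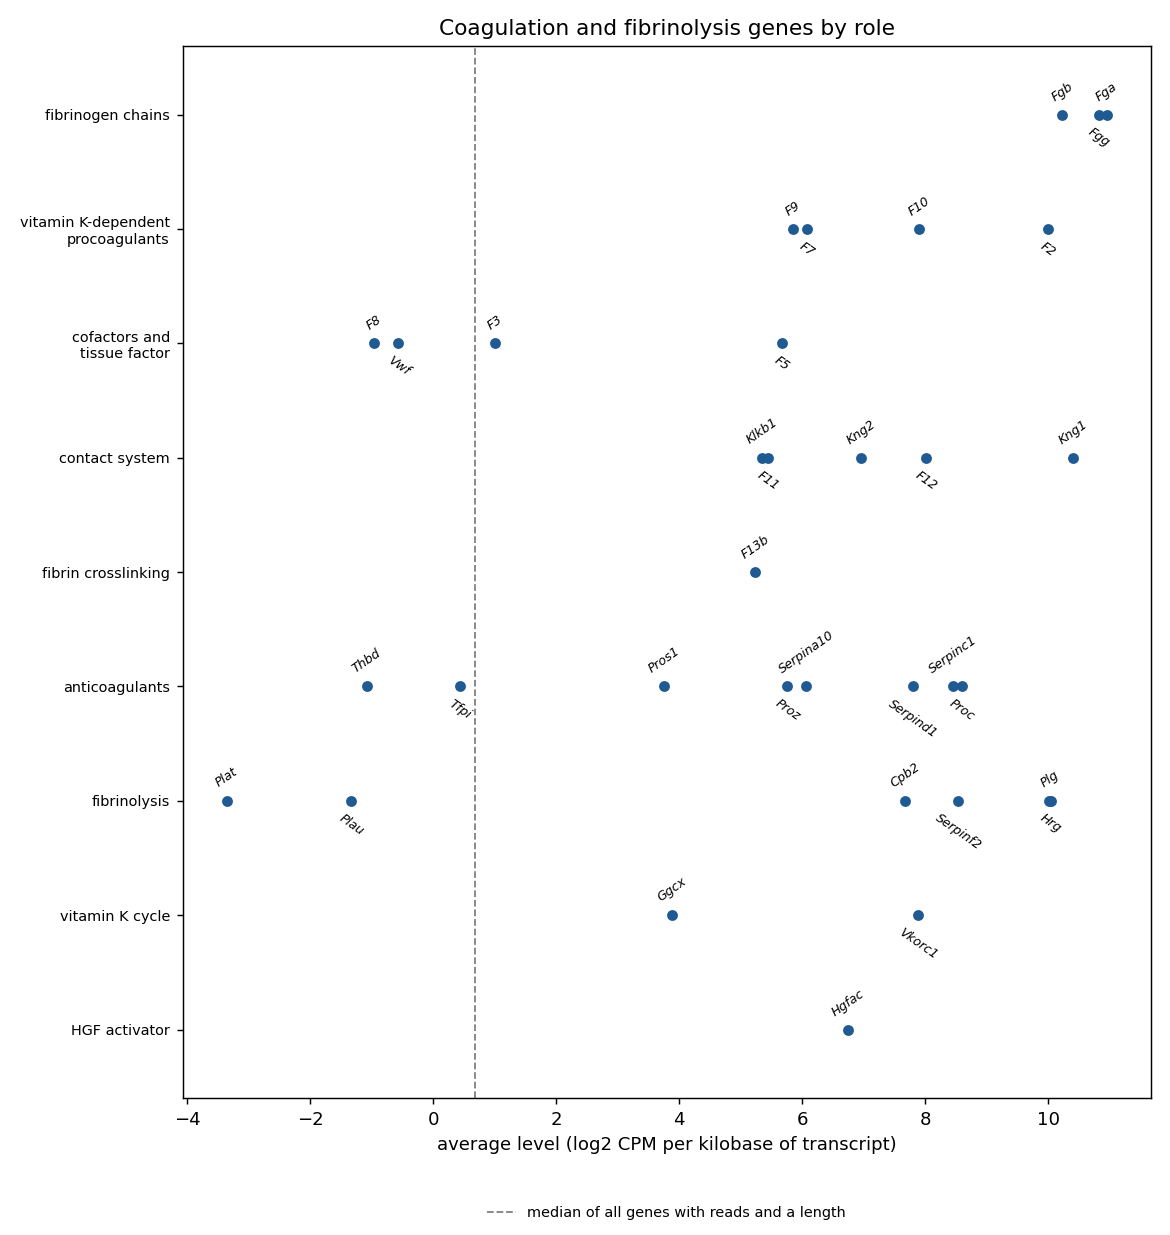
Average level of each of the 34 genes (log2 CPM per kilobase of transcript, 1 point per gene, authors' average over 8 libraries) in rows by role, with a dashed line at the median of all genes with reads and a known length (0.68). The fibrinogen chains lie between 10.23 and 10.95, and the cofactor, anticoagulant and fibrinolysis rows each hold genes on both sides of the line.

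Fibrinogen is a plasma protein built from paired Aα, Bβ and γ chains encoded by *Fga*, *Fgb* and *Fgg*. The 3 genes had the highest average log2 CPM of the 34, at 12.32 for *Fga*, 12.16 for *Fgb* and 11.58 for *Fgg*, which placed them at ranks 20, 26 and 41 among genes with reads. By the estimate from the average, *Fga* had about 140157 reads per library, *Fgb* 125795 and *Fgg* 84000. The order changed once length was taken into account, because the *Fgb* transcript has 3810 bases and the *Fgg* transcript 1695. Per kilobase the log2 levels were 10.95 for *Fga*, 10.82 for *Fgg* and 10.23 for *Fgb*, so the chains of this protein lay within a 1.64-fold range. *Fga* exceeded *Fgb* per kilobase by 1.41 to 1.82-fold over the 4 ways of setting the transcript length.

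The vitamin K-dependent procoagulants are proteases whose glutamate residues are carboxylated so that they bind membranes through calcium. They spread more widely than the fibrinogen chains. *F2*, which encodes prothrombin, had the highest level of the 4, at 1023 CPM per kilobase. *F10*, the protease that converts prothrombin, followed at a log2 level of 7.90 per kilobase. *F7*, which starts the cascade with tissue factor, stood at 6.08, and *F9*, the factor lacking in haemophilia B, at 5.85. The level of *F2* per kilobase was 4.28 times that of *F10*, 15.2 times that of *F7* and 17.7 times that of *F9*. With other transcript lengths these ratios came down to 2.02, 6.56 and 7.65, with *F2* the highest throughout.

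Cofactors speed these proteases on membranes and have no protease activity themselves. *F5*, the cofactor of factor Xa, was the only gene of its group in the upper set, with an average log2 CPM of 8.56 and about 10373 reads per library. Its transcript is long, at 7430 bases, and the level per kilobase was 5.67. *F8*, the cofactor of factor IXa and the factor lacking in haemophilia A, had a log2 level of -0.97 per kilobase, with about 135 reads per library over a transcript of 9784 bases. *F5* was 99.4-fold above *F8* per kilobase, or 40.5-fold at the lowest over the length settings. *Vwf* encodes von Willebrand factor, which tethers platelets and carries factor VIII in plasma. Its log2 level of -0.57 per kilobase was close to that of *F8*, and which of the pair was higher depended on the transcript length used (*F8* to *Vwf* ratio 0.461 to 1.36). *F3*, which encodes tissue factor, the membrane protein that starts clotting after injury, was at 1.0 per kilobase.

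The contact system starts clotting on negatively charged surfaces and releases bradykinin from kininogen. *Kng1* was the most abundant of its 5 genes, with a log2 level of 10.40 per kilobase and rank 50 among genes with reads by average log2 CPM. *F12*, the protease that starts the system, was at 8.01. *Kng2*, the second kininogen gene of the mouse, was at 6.96. *F11*, which activates factor IX, and *Klkb1*, which encodes plasma prekallikrein, are adjacent and related genes and stood at 5.44 and 5.35. *Klkb1* had more reads, about 5881 per library against 2666 for *F11*, but its transcript is longer, at 5249 bases against 2240. *Kng1* and *Kng2* are copies of one ancestral gene. Of the 50-base windows of the *Kng1* transcript, 20.0% occur in transcripts of *Kng2*, and 18.2% of the *Kng2* windows occur in *Kng1*. Reads from those stretches could have been split or dropped in counting, so both levels and their 10.8-fold ratio per kilobase (6.72 at the lowest over the length settings) are uncertain.

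*F13b* encodes the carrier subunit of factor XIII, the transglutaminase that crosslinks fibrin. Its log2 level was 5.24 per kilobase, with about 2476 reads per library. *F13a1*, which encodes the catalytic subunit and is known from macrophages and megakaryocytes, was near the floor at about 1.38 reads per library. *Hgfac* encodes a protease related to factor XII that activates hepatocyte growth factor, and stood at 6.75 per kilobase, below *F12*.

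Among the 8 anticoagulant genes, *Proc*, *Serpinc1* and *Serpind1* had the highest levels per kilobase. *Proc*, the gene of protein C, a protease that inactivates factors Va and VIIIa, had a log2 level of 8.60 per kilobase. *Serpinc1*, the gene of antithrombin, the main inhibitor of thrombin and factor Xa, had more reads (about 48006 per library against 16782) but a longer transcript, and stood at 8.46. The *Serpinc1* level depends on the transcript length more than that of any other of the 34 genes under one setting: with the median transcript length it rose by 2.49 on the log2 scale and passed *Proc*. *Serpind1*, the gene of heparin cofactor II, was at 7.80, and with the union of exons it was above *Serpinc1* (7.80 against 7.68). *Serpina10* encodes the inhibitor of factor Xa that works with protein Z, and *Proz* encodes protein Z. These partners stood at 6.07 and 5.76 per kilobase. *Pros1*, the gene of protein S, the cofactor of activated protein C, was lower at 3.76, and *Proc* was 28.7-fold above it per kilobase, or 16.3-fold at the lowest over the length settings. *Tfpi*, whose protein blocks tissue factor with factor VIIa, stood at 0.44. *Thbd* encodes thrombomodulin, the endothelial receptor that turns thrombin into an activator of protein C, and stood at -1.08. The substrate and the receptor of this reaction differed 819-fold per kilobase in whole liver RNA (521 to 1777-fold over the length settings).

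The fibrinolysis genes had the widest range. *Plg* encodes plasminogen, the precursor of plasmin, and ranked 46 among genes with reads by average log2 CPM, with about 78722 reads per library and 10.02 per kilobase. *Hrg*, whose histidine-rich glycoprotein binds plasminogen and heparin, was at 10.05. *Serpinf2* encodes α2-antiplasmin, the fast inhibitor of plasmin, and was at 8.54, so that *Plg* exceeded it 2.80-fold per kilobase. *Cpb2*, which encodes the thrombin-activatable inhibitor of fibrinolysis, was at 7.68. Both plasminogen activators were under 1 CPM, taken as an average log2 CPM below 0. *Plau*, the urokinase gene, had about 23.5 reads per library (95% Poisson interval 20.3 to 27.2). *Plat*, the gene of tissue-type plasminogen activator, had about 4.76 (3.36 to 6.52). These intervals cover counting error only. Of all genes with reads, 38.2% were under 1 CPM. The average log2 CPM includes a small prior count, which raises genes near the floor: without it (a setting added once the data had been seen), the log2 level of *Plat* per kilobase was -3.87 in place of -3.36. On that scale the level of *Plg* per kilobase was 2840 times that of *Plau* and 15160 times that of *Plat*, or up to 27850 times for *Plat* with other lengths.

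The vitamin K cycle regenerates the cofactor of carboxylation. *Vkorc1*, the target of warfarin, was at 7.89 per kilobase and *Ggcx*, the carboxylase, at 3.89. With the median transcript length *Ggcx* was at 5.31. The *Vkorc1* to *Ggcx* ratio per kilobase was 7.38 to 15.9 over the length settings. The *Vkorc1* level is uncertain, because 50.5% of its 50-base windows are shared with *Gm21974*, an annotated gene that overlaps 401 of its exon bases on the same strand. For *Klkb1* the same holds of *Gm45753*, which shares 42.7% of its windows. Levels of the overlapping genes were not used here, and how the counting assigned reads of the shared exons is not given in the sources used here. The paralogue *Vkorc1l1* was at -0.10.

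Of the 34 genes, 27 share no 50-base window with any other annotated gene. *F10*, *Serpina10* and *Ggcx* share under 2 percent of theirs. Exons of 4 of the 34 genes overlap a gene on the other strand: *Fgg*, *F5*, *Serpinc1* and *Plg*. The overlaps cover 34.4% of the annotated exon bases of *Serpinc1* (with *Zbtb37*) and 11.3% of those of *Plg* (with *Slc22a3*). The libraries were stranded, but the strand setting of the counting is not given in the sources used here. Relative to the gene it overlaps, the non-coding gene *Gm16548*, opposite *F5*, had the most reads, about 475 per library or 4.58% of those of *F5*. *Zbtb37* had about 66.7 reads per library, 0.139% of those of *Serpinc1*, and *Slc22a3* about 99.0, 0.126% of those of *Plg*. *Gm30097*, opposite *Fgg*, was not analysed here.

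The 7 lower genes were set beside markers of the cell types of liver and blood. In bulk tissue, fewer cells of a type and less RNA per cell cannot be told apart. Hepatocyte markers dominated: the 6 listed genes took 9.66% of all reads, with *Alb* at 15.06 per kilobase and *Hnf4a* at 7.54. All 6 sinusoidal endothelial markers were present, with a median of 1.95 per kilobase and *Clec4g* the highest at 4.93. *Stab2*, the scavenger receptor of these cells, was 10.5-fold above *F8* and 7.99-fold above *Vwf* per kilobase, and up to 49.0-fold and 22.6-fold with other lengths. The 6 Kupffer cell markers had a median of 1.75, with *Clec4f* at 5.05, and the 6 stellate cell markers a median of 0.76, with *Dcn* at 5.82. The 5 cholangiocyte markers had a median of 0.25, with *Spp1* the highest at 3.99. The summed level was 127 CPM for the endothelial list, 174 for the Kupffer list, 153 for the stellate list and 35.2 for the cholangiocyte list. The part of these cells in the levels of the 7 genes was not tested.

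Blood cell markers were unevenly present. Among the platelet and megakaryocyte markers, 4 of 5 were under 1 CPM, and the list summed to 4.50 CPM. *Itga2b* made up 3.52 CPM of that sum, with about 96.8 reads per library, and was the highest at 0.06 per kilobase. *Pf4* had about 13.3 reads per library, and *Gp9* and *Gp1ba* about 2.49 and 1.89. All 4 neutrophil markers, all 3 B cell markers and all 3 T and NK cell markers were under 1 CPM. They summed to 0.706, 1.05 and 1.04 CPM. *S100a9*, at -0.07 per kilobase, was the highest neutrophil marker and *Nkg7*, at -1.15, the highest T and NK cell marker. Among the B cell markers *Cd79a* had about 8.40 reads per library and *Ms4a1* about 4.03, and *Ly6g*, which defines mouse neutrophils, had about 0.126 reads per library. The erythroid list took 0.0227% of all reads, with *Hbb-bs* the highest at 6.96 and *Alas2* at 6.00.

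**Figure D2:**
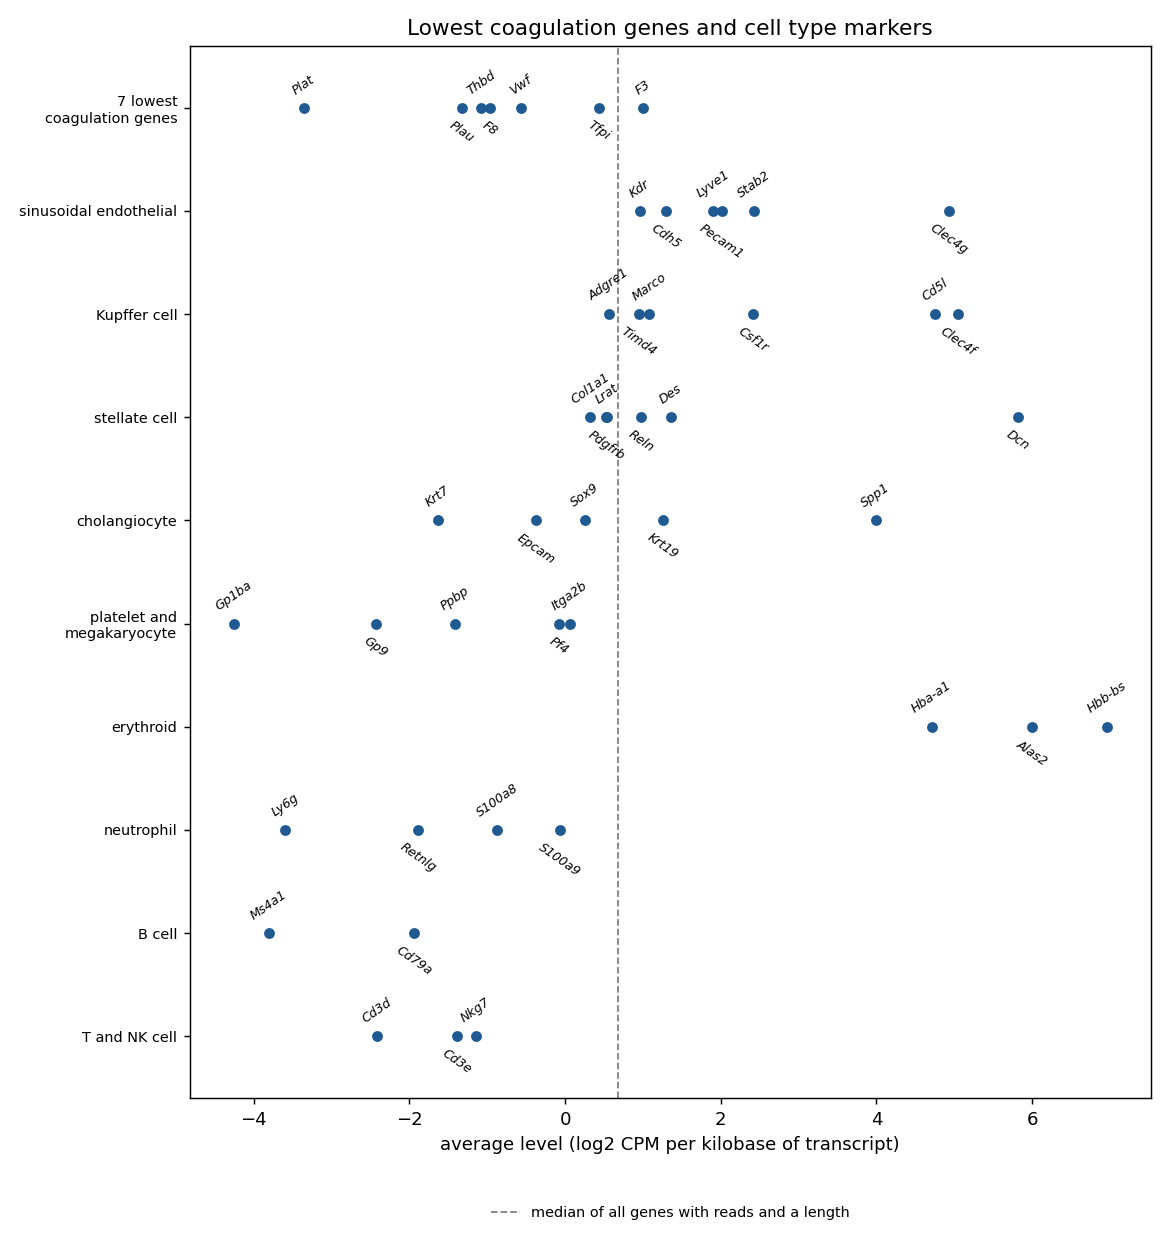
Average level (log2 CPM per kilobase of transcript, 1 point per gene, authors' average over 8 libraries) of the 7 lowest coagulation genes and of marker genes of 9 cell types other than hepatocytes, with a dashed line at the median of all genes with reads and a known length (0.68). *F3* at 1.0 is the highest of the 7 and lies near *Kdr* at 0.96, the lowest endothelial marker, while *Plat* at -3.36 lies among the lowest markers of blood cells.

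The other 40 listed genes of coagulation, its receptors and its protein processing had a median log2 level of 2.94 per kilobase, and 12 of them were in the highest 5 percent of genes with reads. The 10 highest per kilobase began with *Apoh*, which encodes a plasma protein that binds phospholipids, at 10.99. *Serping1*, the gene of the C1 inhibitor, which also blocks factor XIIa and kallikrein, was at 8.99, or 1.98-fold above *F12* per kilobase (1.31-fold at the lowest over the length settings). *Hpn*, the hepatocyte membrane protease hepsin, was at 8.29. Then came *Fgl1* (7.73), a fibrinogen-related secreted protein, the disulphide isomerase gene *Pdia3* (7.42) and *Cpn1* (7.39), the catalytic subunit of carboxypeptidase N. *S100a10*, part of a plasminogen receptor with annexin A2, was at 7.38 and *C4bp*, a carrier of protein S in humans, at 7.28. *Mcfd2*, at 6.47, and *Cpn2*, at 6.46, closed the 10. *Mcfd2* and *Lman1* form the receptor that carries factors V and VIII out of the endoplasmic reticulum, and *Lman1* was lower, at 4.80.

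Under 1 CPM were 10 genes of that list: *F13a1*, *Serpina5*, *Plaur*, *Procr*, *Thbs1*, *F2rl1*, *F2rl2*, *F2rl3*, *A2m* and *Bdkrb2*. *Procr*, the endothelial protein C receptor, had about 12.6 reads per library, and *Plaur*, the urokinase receptor, about 6.62. Of the thrombin and protease receptors, *F2r* was at 2.47 per kilobase with about 507 reads per library, while *F2rl1*, *F2rl2* and *F2rl3* had about 2.39, 1.49 and 0.867. *Bdkrb2*, the bradykinin receptor, had about 0.501.

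All 17 listed transcription factors had reads, with a median of 3.53 per kilobase. *Cebpa* and *Hnf4a*, which drive hepatocyte genes, led at 7.66 and 7.54. *Ppara*, the gene that carries the edited allele, was at 6.60, followed by *Dbp*, a circadian factor, at 6.39, *Nr1h4*, the bile acid receptor, at 6.36 and *Cebpb*, an acute-phase factor, at 6.25. The forkhead factors were at 5.18 for *Foxa3*, 3.53 for *Foxa2* and 2.05 for *Foxa1*. *Stat3*, which carries the interleukin-6 signal, was at 4.05, *Nr2f2* at 2.83, *Onecut1* at 1.77 and *Cebpd* at 1.11. *Klf2* and *Klf4*, known in endothelium as inducers of *Thbd*, were at 1.75 and -0.81, and *Esr1* was the lowest at -2.05.

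The 34 genes lie on 15 chromosomes, and 11 of them lie within 100 kb of another in 4 loci. The fibrinogen genes occupy 42.1 kb of chromosome 3 in GRCm38. *Fgg* (83007724 to 83015049) and *Fga* (83026076 to 83033627) are on the plus strand and *Fgb* (83040141 to 83049863) is on the minus strand. *Plrg1*, a splicing factor gene that lies next to *Fgb*, was at 3.52 per kilobase, against 10.23 to 10.95 for the fibrinogen genes. On chromosome 8, *F7*, *F10* and *Proz* follow each other on the plus strand from 13026034 to 13076026, with 1498 bases between *F7* and *F10*. *F10* was 3.55-fold above *F7* and 4.41-fold above *Proz* per kilobase, and up to 6.13-fold and 6.68-fold with other lengths. *Mcf2l*, which lies before *F7*, had about 8.48 reads per library, and *Pcid2*, which lies after *Proz*, was at 2.42 per kilobase. Further along, *Lamp1*, the gene of a lysosomal membrane protein, was at 8.25, above all 3 coagulation genes of the locus. *F11* and *Klkb1* lie on the minus strand of the same chromosome, from 45241174 to 45294859, 4657 bases apart. *Cyp4v3*, a cytochrome P450 gene beside *Klkb1*, was at 6.89, above both, and *Fam149a* was at 1.55. On chromosome 16, *Hrg*, *Kng2* and *Kng1* span 131 kb from 22951072 to 23082078. The related genes *Fetub* and *Ahsg*, which encode fetuins, lie beside them and were at 9.0 and 12.61 per kilobase. *Adipoq*, an adipocyte gene in the same region, had about 6.88 reads per library.

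**Figure D3:**
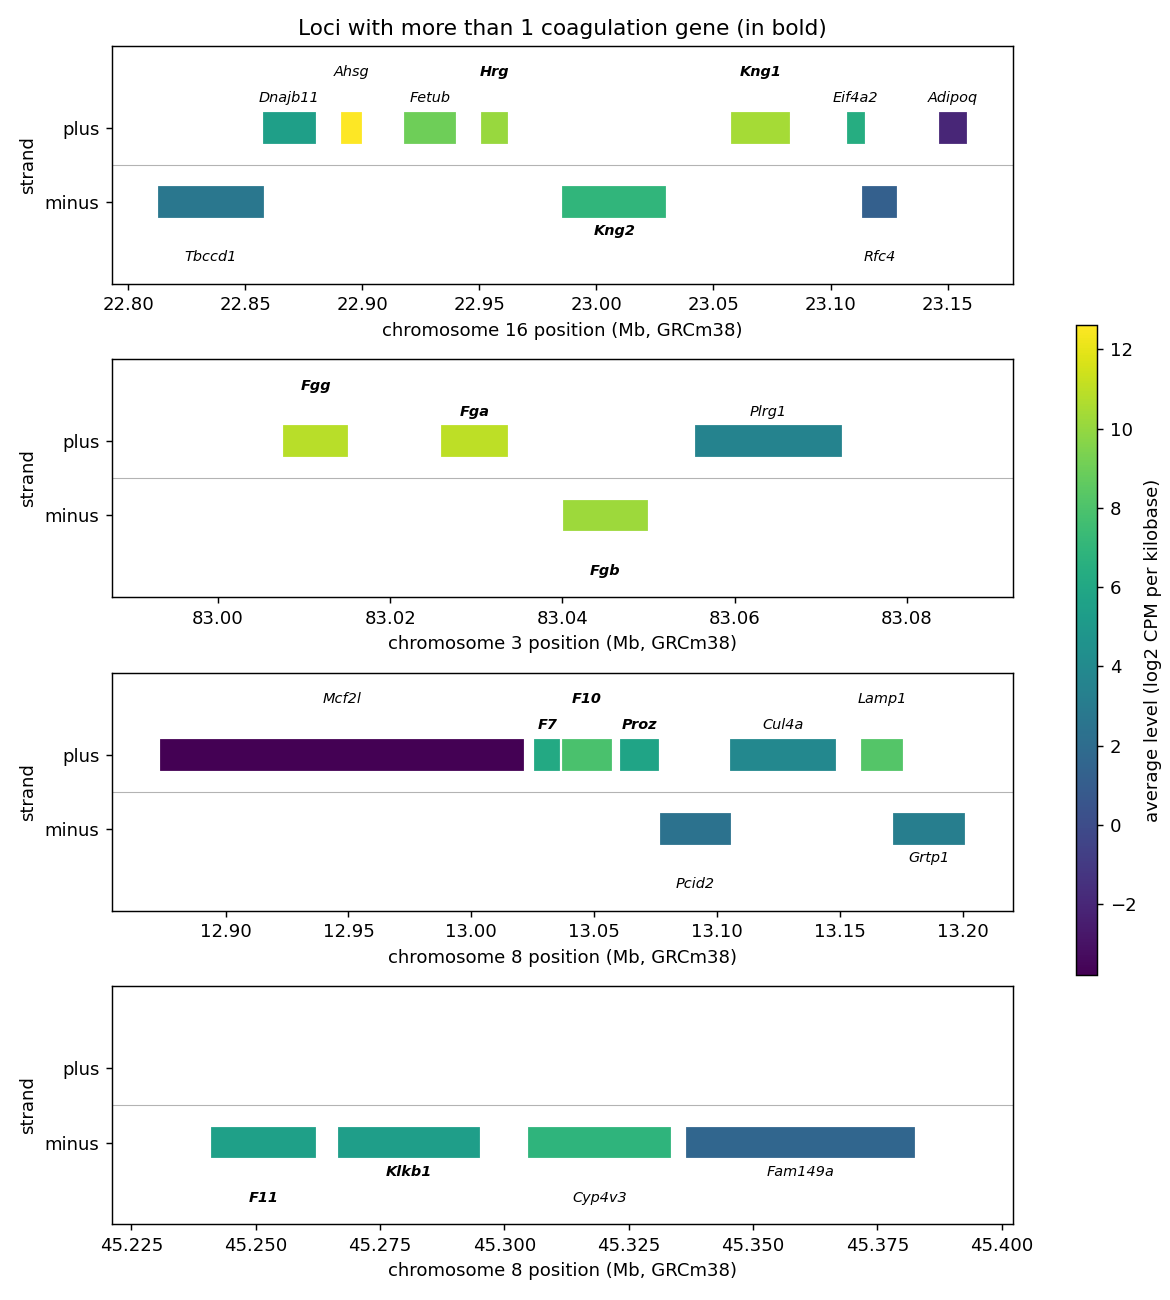
Maps of the 4 loci with more than 1 of the 34 genes, to scale in GRCm38 (horizontal axis, position in Mb; vertical axis, strand), with protein-coding genes that had reads within 100 kb drawn as boxes and coloured by average level (log2 CPM per kilobase, authors' average over 8 libraries). The fibrinogen genes (10.23 to 10.95) stand beside *Plrg1* (3.52), and the *F7*, *F10* and *Proz* genes (6.08, 7.90 and 5.76) stand between *Mcf2l*, with about 8.48 reads per library, and *Pcid2* (2.42), with *Lamp1* (8.25) further along.

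Promoter sequences from RefSeq (GRCm38.p6), 300 bases around the start of each gene, were matched for 26 of the 34 genes, with 27 promoters because *Tfpi* has a pair. Not matched were *Plat*, *Vwf*, *Plg*, *Serpina10*, *Kng1*, *Thbd*, *Plau* and *Proc*. Both strands were searched for short motifs chosen after the fibrinogen promoters had been viewed, so shares are also given for the 24 promoters of the other genes. The C/EBP motif TTGCNNAA was in 10 of 27 promoters of coagulation genes (37.0%), in 8 of the 24 (33.3%) and in 10.8% of all 32851 promoters. The interleukin-6 element CTGGGAA was in 5 of 27 (18.5%), but without the fibrinogen promoters in 3 of 24 (12.5%), near the 11.1% of all promoters. TATAAA was in 4 of 27 (14.8%) and 4 of 24 (16.7%), against 13.6% of all. The HNF4 motif CAAAGTCCA was in 0 of 27 and in 0.475% of all promoters. A direct repeat of AGGTCA with a spacer of 1 base, the arrangement bound by PPARɑ with RXR, was also in 0 of 27 and in 0.0396% of all. Both of these motifs were searched as fixed letters and are rare, so 0 of 27 is near their shares of all promoters. Their absence is therefore not a result about these genes, and sites with other letters were not searched. A match describes the letters in this window and not binding.

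The promoters of the fibrinogen genes are shown because their products form 1 protein and their levels per kilobase lay within 1.64-fold of each other. Each runs 5′ to 3′ on the strand of its gene and ends before the first annotated base of the gene, and capitals mark matches to the motifs above. The stretch of *Fga* is chr3:83025903-83026075 on the plus strand, that of *Fgb* chr3:83049864-83050113 on the minus strand and that of *Fgg* chr3:83007474-83007723 on the plus strand.
Fga: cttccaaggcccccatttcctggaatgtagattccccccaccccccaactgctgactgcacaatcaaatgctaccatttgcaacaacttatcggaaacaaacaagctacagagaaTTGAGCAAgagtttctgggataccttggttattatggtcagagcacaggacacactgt
Fgb: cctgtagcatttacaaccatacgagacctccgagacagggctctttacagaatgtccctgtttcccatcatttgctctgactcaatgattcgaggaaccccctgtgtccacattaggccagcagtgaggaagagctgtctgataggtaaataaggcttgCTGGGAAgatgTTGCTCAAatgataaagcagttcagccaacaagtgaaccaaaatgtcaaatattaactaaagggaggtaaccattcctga
Fgg: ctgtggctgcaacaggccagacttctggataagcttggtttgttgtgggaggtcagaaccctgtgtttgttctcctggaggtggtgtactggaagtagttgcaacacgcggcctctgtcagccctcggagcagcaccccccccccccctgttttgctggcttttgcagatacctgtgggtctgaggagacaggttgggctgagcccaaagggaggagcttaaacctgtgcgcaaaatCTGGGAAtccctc
The capitals in *Fga* are a C/EBP match. In *Fgb* they are, in order, an interleukin-6 element and a C/EBP match. In *Fgg* they are an interleukin-6 element. The stretch of *Fga* is shorter because 77 bases of its window fall inside the annotated gene and were left out.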

How the data were processed

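Liver RNA of 4 wild-type and 4 V227A mice was sequenced as stranded poly-A, paired-end libraries on a NovaSeq X Plus. On Galaxy, the authors' genotype comparison came from edgeR, with reads per gene from featureCounts and RNA STAR as the aligner (GRCm38). Trimmomatic and FastQC served for trimming and quality checks before that. Versions, annotation and strand setting are not given in the sources used here. No filter on low counts is described there, and the table still holds 8242 genes at its lowest value, taken below as no reads. The deposited table gives, per gene, the authors' average log2 CPM, which was used, and their genotype comparison (log2 fold change, F statistic, p-value and FDR), which was not. It has 0 columns of values per library, so the planned genotype test could not be run.

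Reads per library were estimated from the average log2 CPM, taking the lowest value (-3.78, 8242 genes) as no reads and a prior count of 2, an assumption. The mean library size came to 27473997 reads, and each library's own depth is unknown. Of 2378 genes with an estimated 1 to 5 reads in total, 99.9% lay within 0.1 of a whole number. The conversion was tested on simulated data with the prior count taken as known, which does not test that assumption. Transcript lengths came from GENCODE vM21, using the longest APPRIS principal transcript. The longest transcript, the median transcript and the union of exons were alternatives. Python 3.11.15, pandas 2.3.3, numpy 2.4.6, scipy 1.17.1 and matplotlib 3.10.9 were used.

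The rule named all 34 genes. It also named the 10 highest of the other coagulation genes and those under 1 CPM, the most abundant and near-absent genes of each marker list, and every transcription factor listed. A few of the genes it named are not reported here, although counts, sums and medians of their lists include them. Other genes, and the ratios between genes, were chosen after their values were seen. The members and lists were chosen with earlier results of these data known.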

Additional observations from a re-analysis of the deposited data

How the results depend on the processing

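No paired analysis was possible because the table has no columns per library. For the same reason leaving out each replicate and the other normalizations, filters and tests of the genotype comparison were not run, and how far any level varies between mice is unknown. *Plau* rests on about 23.5 reads per library and *Plat* on about 4.76.

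The count of 22 coagulation genes in the highest 5 percent became 24 against all genes of the table, 19 against genes with an average log2 CPM of at least 0 and 19 when ranked per kilobase. The median average log2 CPM of 7.86 was 7.86 with the prior count removed and 8.02 over genes at 0 or above. The share of reads, 2.92%, was 2.93% with the prior count removed and 3.08% without mitochondrially encoded genes.

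Transcript length moved the medians per kilobase (log2). With the median transcript they were 10.80 for fibrinogen, 7.38 for the vitamin K-dependent procoagulants, 1.67 for cofactors, 7.59 for the contact system, 6.00 for *F13b*, 6.50 for anticoagulants, 8.52 for fibrinolysis, 6.75 for the vitamin K cycle and 8.27 for *Hgfac*. With the union of exons they were, in that order, 10.51, 6.93, -0.21, 6.71, 5.15, 5.56, 8.0, 5.73 and 6.08. With the longest transcript fibrinogen was 10.78 and *Hgfac* 6.54, and the medians of the other 7 roles were unchanged. With the median transcript 23 of the 34 single levels were higher and 3 lower. Only the length differs between these settings, so a higher level means a shorter median transcript. Single genes rose by 2.49 at most (*Serpinc1*, median transcript) and fell by 1.43 at most (*Tfpi*, union of exons). With the prior count removed, an alternative chosen after seeing the data, 33 of 34 single levels moved by less than counting error and *Plat* went to -3.87. The same 7 genes were lowest per kilobase under all 4 lengths. Of the 7 highest, 6 were shared with the median transcript and 7 with the other 2 alternatives.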
